A study of Mus musculus with 8 samples.

Results

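Circadian clock genes were followed in ribosome-bound messenger RNA of kidney endothelium, the cells that line blood vessels. The set is 10 genes, Arntl, Clock, Npas2, Per1, Per2, Per3, Cry1, Cry2, Nr1d1 and Dbp, chosen by name from 23930 amplicons of a targeted mouse panel, each amplicon standing for 1 gene. All 10 were in the table, and all 10 passed the filter on low counts. Every mouse carried a tagged ribosomal subunit (EGFP/Rpl10a), switched on in endothelium after tamoxifen by cdh5-CreERT2, so that ribosomes of these cells could be pulled down. The groups were SOCS3iKEO mice given 250 µg lipopolysaccharide (LPS, an endotoxin of bacterial outer membranes) in 250 µl (n = 2), SOCS3iKEO mice given 250 µl saline (n = 1), WT mice given the same LPS dose (n = 3) and WT mice given saline (n = 2). SOCS3iKEO stands for an inducible knockout of Socs3, an inhibitor of cytokine signalling through JAK and STAT proteins, in endothelium. Injections were intraperitoneal, each library came from 1 mouse, and kidneys were taken after 14 hours. The sources used here give no age, sex, lighting schedule or clock hour of injection or collection, so it is not known here at which circadian time, or whether at the same one, the mice were sampled.

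The mammalian clock is a loop of transcription factors and their repressors. BMAL1 (encoded by Arntl) pairs with CLOCK or NPAS2, binds E-box sequences and switches on the Per, Cry, Nr1d1 and Dbp genes. PER and CRY proteins then enter the nucleus and silence BMAL1, while REV-ERB alpha (encoded by Nr1d1) represses Arntl through ROR elements and DBP activates genes with D-boxes. In the vessel wall this clock is known for daily rhythms in vascular tone, clotting factors and leukocyte adhesion.

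The promoter windows below are those of members that hold a match to the E-box, its E-prime variant or the ROR element, with 1 window shown for each. They are RefSeq sequences of build GRCm38.p6, from 250 bases before to 50 bases after the annotated start, and 9 of the 10 members matched the table with 13 windows (Per2 is named only). Capitals mark matches, on either strand, to the E-box CACGTG, the related E-prime box CACGTT, read as AACGTG on the other strand, the D-box TTATGNAA and the ROR element TAGGTCA. Positions are counted from the start site as base 1, with no base 0.
Per1, first of its windows, chr11:69098699-69098998, plus strand: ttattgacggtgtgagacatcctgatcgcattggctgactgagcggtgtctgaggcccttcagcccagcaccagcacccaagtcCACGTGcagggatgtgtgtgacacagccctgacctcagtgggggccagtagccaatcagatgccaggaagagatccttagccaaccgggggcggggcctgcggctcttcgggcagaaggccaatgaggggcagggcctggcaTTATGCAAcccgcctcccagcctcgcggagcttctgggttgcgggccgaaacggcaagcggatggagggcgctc
Cry1, chr10:85185005-85185304, minus strand: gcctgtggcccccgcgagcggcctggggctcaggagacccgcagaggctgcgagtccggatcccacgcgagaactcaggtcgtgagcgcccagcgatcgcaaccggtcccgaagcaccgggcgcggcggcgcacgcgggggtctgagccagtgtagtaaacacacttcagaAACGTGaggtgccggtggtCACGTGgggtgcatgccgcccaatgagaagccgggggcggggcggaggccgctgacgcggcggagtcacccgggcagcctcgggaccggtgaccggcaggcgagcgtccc
Cry2, chr2:92434020-92434319, minus strand: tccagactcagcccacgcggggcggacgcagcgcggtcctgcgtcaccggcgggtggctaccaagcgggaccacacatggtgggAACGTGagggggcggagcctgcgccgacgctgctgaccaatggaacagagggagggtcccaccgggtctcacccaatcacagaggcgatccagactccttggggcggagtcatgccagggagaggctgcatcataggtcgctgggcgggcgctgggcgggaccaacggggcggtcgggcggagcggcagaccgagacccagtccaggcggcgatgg
Nr1d1, chr11:98775328-98775627, minus strand: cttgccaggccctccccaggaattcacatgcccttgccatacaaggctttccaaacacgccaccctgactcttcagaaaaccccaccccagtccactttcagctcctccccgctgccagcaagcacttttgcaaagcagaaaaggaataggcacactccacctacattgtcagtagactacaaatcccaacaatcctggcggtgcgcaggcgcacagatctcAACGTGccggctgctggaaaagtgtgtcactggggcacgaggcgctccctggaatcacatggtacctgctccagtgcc
Arntl, second of its windows, chr7:113207261-113207560, plus strand: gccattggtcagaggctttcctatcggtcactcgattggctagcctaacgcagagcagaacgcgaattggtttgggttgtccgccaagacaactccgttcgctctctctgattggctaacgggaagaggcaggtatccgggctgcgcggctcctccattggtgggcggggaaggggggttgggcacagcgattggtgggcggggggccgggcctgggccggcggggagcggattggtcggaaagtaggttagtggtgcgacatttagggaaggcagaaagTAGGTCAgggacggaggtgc
Only Per1 and Cry1, 2 of the 9 members searched, held the E-box, and 3 held the E-prime box. Windows of Clock, Npas2 and Dbp held none of the elements marked. The E-box began at position -166 in Per1 and -60 in Cry1, and the E-prime box at -79 in Cry1, -166 in Cry2 and -28 in Nr1d1. The D-box began at -24 in Per1 and, in a window not shown, at -205 and -158 in Per3, and the ROR element at 31 in Arntl. Counted by window, 2 of the 13 member windows held the E-box, 3 the E-prime box, 2 the D-box and 1 TAGGTCA. Among all 32851 promoter windows of the same length, 7.15% held the E-box, 4.68% the E-prime box, 3.38% the D-box and 2.61% TAGGTCA. The other ROR form TGGGTCA (3.98% of all windows) and the cyclic AMP response element TGACGTCA (1.79%) matched no member window. The STAT-type palindrome TTCNNNGAA, held by 8.3% of all windows, matched the Dbp window at -99 and the second Per1 window at -210, neither of which is shown. A match is a run of letters only, and these data hold no measurement of factor binding.

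The libraries held 7093794 to 14877519 reads, and 3 reads, the detection floor used here, were worth 0.202 to 0.423 reads per 1000000 panel reads (RPM). The 14 endothelial markers were detected in every library, with summed deposited levels of 4681 to 6429 RPM in SOCS3iKEO LPS, 11075 RPM in SOCS3iKEO saline, 6709 to 8603 RPM in WT LPS and 11286 to 12115 RPM in WT saline. In SOCS3iKEO the markers moved both ways, Cdh5 at 1003 and 1362 RPM after LPS against 336 after saline. Plvap stood at 879 and 840 RPM against 3806. By the calls defined below, 4 of the 14 were higher and 4 lower with LPS in SOCS3iKEO (2 and 8 as deposited). With LPS in WT 0 were higher and 3 lower, and between genotypes after LPS 4 and 3. Over all genes the shares were 20.2% and 23.9%, 6.85% and 8.79%, and 24.0% and 26.7%. In bulk samples, fewer cells of a type and less RNA per cell cannot be told apart. The SOCS3iKEO LPS libraries stood apart in composition, with scaling factors (TMM, trimmed mean of M-values) of 0.671 and 0.709, against 1.25 in SOCS3iKEO saline, 0.994 to 1.07 in WT LPS and 1.25 to 1.26 in WT saline. Animal numbers in the labels formed 2 runs, one with WT saline and SOCS3iKEO LPS, the other with WT LPS and SOCS3iKEO saline, and each comparison within a genotype or within a treatment lay across these runs, so that a shift between runs and the compared factor cannot be told apart. Levels below are deposited RPM unless called scaled. In WT, 14.3% of all genes tested had every LPS library above every saline library as deposited, and 44.8% had every LPS library below. In SOCS3iKEO, with a single saline library, these shares were 21.6% and 66.9%. After scaling they were 26.7% and 29.7% in WT and 40% and 45.7% in SOCS3iKEO. Fold changes are log2 differences of TMM-scaled RPM plus 1, which understates the change of low genes, and a gene was called where limma's Benjamini-Hochberg adjusted p over 12820 genes was under 0.05.

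In SOCS3iKEO endothelium, LPS was accompanied by higher Per1, Per2, Cry1, Cry2, Npas2 and Dbp and lower Nr1d1 and Per3. That made 6 of the 10 members higher and 2 lower, on a background of 20.2% of all genes higher and 23.9% lower, and as deposited 5 were higher and 3 lower. In WT endothelium fewer members were called with LPS, with more Per2 and Cry1 and less Nr1d1. In this comparison 2 of the 10 members were called higher and 1 lower, while over all genes tested 6.85% were called higher and 8.79% lower, and in values as deposited 2 members were higher and 2 lower. The median log2 fold change over the members was 2.35 in SOCS3iKEO and 0.05 in WT, and over all genes it was -0.08 in SOCS3iKEO and -0.02 in WT.

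Between genotypes after LPS, the repressors Per1, Per2, Cry1 and Cry2, together with Nr1d1 and Dbp, were higher in SOCS3iKEO than in WT endothelium, and Clock was lower. These 6 members higher and 1 lower stood on a background of 24.0% of all genes higher and 26.7% lower. As deposited 3 were higher and 1 lower, with Per2, Cry1 and Nr1d1 no longer called. The difference of the LPS effects between genotypes (interaction) was called in 3 members, Per1, Cry2 and Dbp, all with the more positive LPS effect in SOCS3iKEO, while 8.96% of all genes were called in that direction and 9.49% in the other. The interaction rests on a single SOCS3iKEO saline library, whose spread was taken from the other groups. After saline, limma called none of the 10 members between genotypes, and 0% of all genes in either direction. There edgeR called 0 genes and DESeq2 5, and 423 genes had an unadjusted p under 0.05 in limma, none of them a member.

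**Figure D1:**
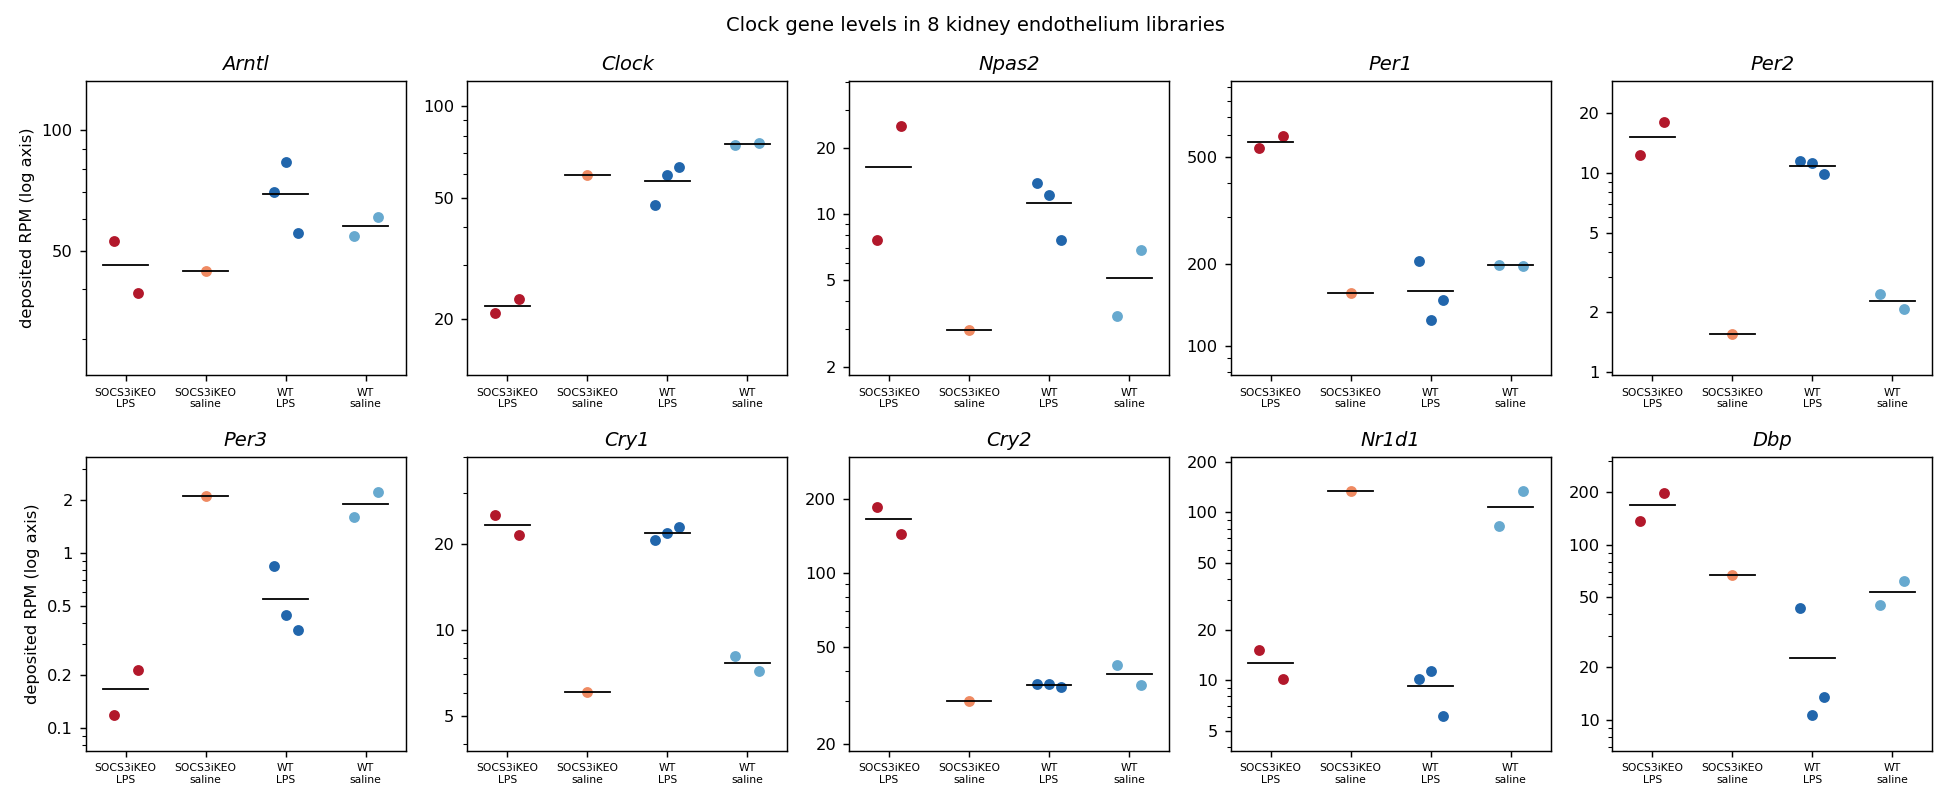
Deposited level of each of the 10 clock genes (RPM, log axis, own range per panel) in SOCS3iKEO LPS (2 mice), SOCS3iKEO saline (1), WT LPS (3) and WT saline (2). Each point is 1 library and each bar the group mean: Per1, Cry2 and Dbp stand highest in SOCS3iKEO LPS, Per2 and Cry1 are high and Nr1d1 and Per3 low in both LPS groups.

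**Figure D2:**
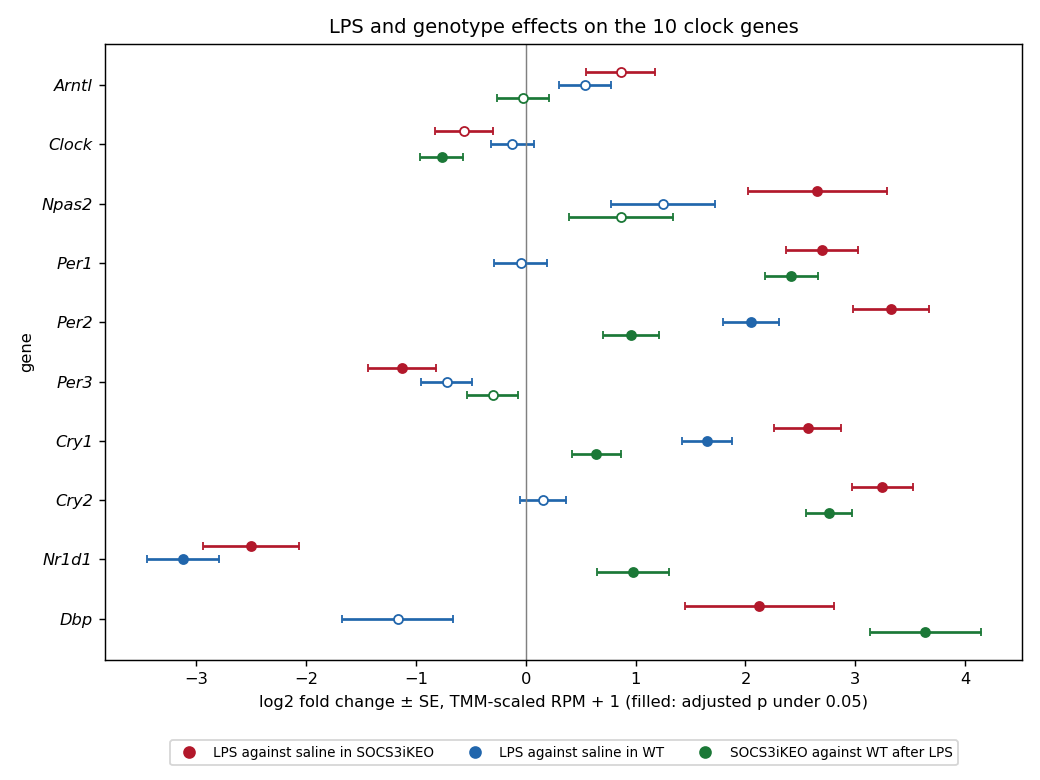
Log2 fold change with its standard error for each clock gene, for LPS against saline in SOCS3iKEO (red), LPS against saline in WT (blue) and SOCS3iKEO against WT after LPS (green), from limma on TMM-scaled RPM plus 1. Filled points passed an adjusted p of 0.05: Per2, Cry1 and Nr1d1 are filled in both genotypes, and Per1, Cry2 and Dbp only in the comparisons that hold SOCS3iKEO LPS.

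Among the activators, Arntl (chromosome 7, 113207465 to 113314126, plus strand; gene bounds here and below in mm10) encodes BMAL1, the obligate partner of the loop. Its level was 52.8 and 39.0 RPM in SOCS3iKEO LPS, 44.5 RPM in SOCS3iKEO saline, 69.9, 83.1 and 55.2 RPM in WT LPS and 54.4 and 60.8 RPM in WT saline. As deposited, every SOCS3iKEO library lay below every WT library, and within each genotype the LPS and saline values overlapped. After scaling the order was different, at 66.8 ± 16.7 scaled RPM in SOCS3iKEO LPS (SD, n = 2), 35.7 in SOCS3iKEO saline, 67.7 ± 11.8 in WT LPS (n = 3) and 45.9 ± 3.96 in WT saline (n = 2). The log2 fold change with LPS was 0.86 in SOCS3iKEO (SE 0.32, adjusted p = 0.0513) and 0.54 in WT (SE 0.24, adjusted p = 0.152), neither of them called. With RLE size factors the SOCS3iKEO value was 0.94 (adjusted p = 0.0419), with DESeq2 0.98 (0.0292) and without SOCS3iKEO LPS 2 it was 1.13 (0.0201), so that the call depends on these choices. Between genotypes after LPS the difference was -0.03, with a 95% interval of -0.56 to 0.51, and its sign was not the same under all scalings.

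Clock (chromosome 5, 76209868 to 76304792, minus strand) encodes the histone acetyltransferase partner of BMAL1. It stood at 20.9 and 23.1 RPM in SOCS3iKEO LPS, 59.3 RPM in SOCS3iKEO saline, 47.3, 59.2 and 63.2 RPM in WT LPS and 74.6 and 75.8 RPM in WT saline. The SOCS3iKEO LPS libraries were lowest, WT saline highest, and the SOCS3iKEO saline value lay inside the WT LPS range. Scaled levels were 31.9 ± 1.08 RPM in SOCS3iKEO LPS (SD, n = 2) and 55.3 ± 7.55 RPM in WT LPS (n = 3), a log2 fold change of -0.77 (SE 0.20, adjusted p = 0.0104). This call was lost with a term for libraries with Y-linked reads (-0.64, adjusted p = 0.0631). With LPS the log2 fold change was -0.57 in SOCS3iKEO (adjusted p = 0.11), or -1.39 as deposited (adjusted p = 0.00257), and -0.12 in WT (adjusted p = 0.712).

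Npas2 (chromosome 1, 39193731 to 39363236, plus strand) encodes a stand-in for CLOCK and is itself a target of ROR elements. Its level was 7.59 and 25.3 RPM in SOCS3iKEO LPS, 2.96 RPM in SOCS3iKEO saline, 13.8, 12.2 and 7.63 RPM in WT LPS and 3.44 and 6.86 RPM in WT saline. The SOCS3iKEO LPS libraries were far apart, one just below the whole WT LPS range and one above it, while every LPS library lay above every saline library. Npas2 rose with LPS in SOCS3iKEO (log2 fold change 2.66, SE 0.63, adjusted p = 0.00903), by 1.895 without SOCS3iKEO LPS 2 and 3.45 without SOCS3iKEO LPS 1, but was not called when only the 3 SOCS3iKEO libraries entered the fit (2.64, adjusted p = 0.0523). In WT it was 1.25 (SE 0.47, adjusted p = 0.104), and it was called by DESeq2 (1.43, adjusted p = 0.0301), in the fit on WT libraries alone (1.26, 0.0365) and without either SOCS3iKEO LPS library (1.26 and 1.27, both 0.0394). Between genotypes after LPS it was 0.87 (adjusted p = 0.154), and it rested on which SOCS3iKEO LPS library was kept, at 1.65 without SOCS3iKEO LPS 1 (called, adjusted p = 0.0217) and 0.102 without SOCS3iKEO LPS 2 (not called). DESeq2 called it (1.17, 0.0408).

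The Period genes encode the repressors whose slow build-up times the loop, and their 3 members behaved differently in these libraries. Per1 (chromosome 11, 69095217 to 69109960, plus strand) is also known as an immediate target of glucocorticoid and cyclic AMP signals. It stood at 539.7 and 594 RPM in SOCS3iKEO LPS, 157 RPM in SOCS3iKEO saline, 207, 125 and 147 RPM in WT LPS and 199 and 198 RPM in WT saline. Both SOCS3iKEO LPS libraries lay above all others, and the remaining 6 values lay close together, the WT LPS range taking in all saline values. Scaled Per1 was 821 ± 23.8 RPM in SOCS3iKEO LPS (SD, n = 2), against 126 RPM in SOCS3iKEO saline. In WT it was 157 ± 46.2 scaled RPM after LPS (n = 3) and 158 ± 0.133 after saline (n = 2). Per1 rose with LPS in SOCS3iKEO by a log2 fold change of 2.70 (SE 0.33, adjusted p = 0.000447), while in WT the value was -0.05 with a 95% interval of -0.59 to 0.50. After LPS it was higher in SOCS3iKEO than in WT by 2.42 (SE 0.24, adjusted p = 0.000147), and the interaction was 2.75 (SE 0.41, adjusted p = 0.00606). Over all alternatives run, the genotype difference after LPS ranged over log2 values of 1.85 to 2.65 and the interaction over 2.19 to 2.95, each called.

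Per2 (chromosome 1, 91415982 to 91459324, minus strand), the period gene whose product is a main partner of the cryptochromes, showed another pattern, with LPS and saline apart in both genotypes. It stood at 12.2 and 18.0 RPM in SOCS3iKEO LPS, 1.55 RPM in SOCS3iKEO saline, 11.5, 11.3 and 9.82 RPM in WT LPS and 2.45 and 2.08 RPM in WT saline. Every LPS library lay above every saline library, with 103 to 254 reads after LPS in SOCS3iKEO and 11 reads in its saline library, and with 108 to 152 reads after LPS and 31 and 35 after saline in WT. Per2 rose with LPS by a log2 fold change of 3.33 in SOCS3iKEO (SE 0.34, adjusted p = 0.000249) and of 2.05 in WT (SE 0.26, adjusted p = 0.00155), and both were called in every alternative run, with log2 values of 1.49 to 4.21 in SOCS3iKEO and 0.80 to 2.57 in WT, the lowest with a pseudocount of 10. The difference of these LPS effects, 1.28, was not called (SE 0.43, adjusted p = 0.0659), apart from the fit without SOCS3iKEO LPS 1 (1.51, adjusted p = 0.0496). Between genotypes after LPS Per2 was higher in SOCS3iKEO by 0.96 (SE 0.26, adjusted p = 0.0125), but not as deposited (0.42, adjusted p = 0.2), without SOCS3iKEO LPS 2 (0.76, 0.0518) or with the Y-linked term (0.85, 0.0652).

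Per3 (chromosome 4, 151003652 to 151044665, minus strand), which is dispensable for rhythms in mice, was near the detection floor. It stood at 0.119 and 0.213 RPM in SOCS3iKEO LPS, 2.11 RPM in SOCS3iKEO saline, 0.837, 0.444 and 0.364 RPM in WT LPS and 1.61 and 2.22 RPM in WT saline. These are 1 and 3 reads, 15 reads, 10, 6 and 4 reads, and 23 and 33 reads, and all LPS libraries lay below all saline libraries. By summed reads per total reads, the ratio of LPS to saline was 0.084 in SOCS3iKEO (95% interval 0.0203 to 0.264) and 0.286 in WT (0.162 to 0.483), intervals that cover counting error only. Limma called Per3 lower with LPS in SOCS3iKEO (log2 fold change -1.13, SE 0.31, adjusted p = 0.0166), a call lost with DESeq2 (adjusted p = 0.0879) and in the fit on the SOCS3iKEO libraries alone (adjusted p = 0.1). In WT the value was -0.72 (SE 0.23, adjusted p = 0.0635), called only as deposited (adjusted p = 0.0195). Because the gene is so low, its fitted values ranged over -2.71 to -0.19 in SOCS3iKEO and -1.50 to -0.13 in WT with the choice of test and pseudocount.

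The cryptochromes, light-independent repressors that hold BMAL1 and CLOCK silent, split in the same way as Per1 and Per2. Cry1 (chromosome 10, 85131700 to 85185064, minus strand) had 25.1 and 21.5 RPM in SOCS3iKEO LPS, 6.06 RPM in SOCS3iKEO saline, 20.6, 21.8 and 22.8 RPM in WT LPS and 8.13 and 7.19 RPM in WT saline. All LPS libraries lay above all saline libraries, and as deposited the LPS ranges of the genotypes overlapped. Cry1 rose with LPS by a log2 fold change of 2.57 in SOCS3iKEO (SE 0.30, adjusted p = 0.000415) and 1.65 in WT (SE 0.23, adjusted p = 0.00248), called in every alternative run, with 1.56 to 2.88 in SOCS3iKEO and 0.96 to 1.81 in WT. The genotype difference after LPS, 0.64 (SE 0.23, adjusted p = 0.0391), was 0.10 as deposited (adjusted p = 0.744) and was lost without any 1 of SOCS3iKEO LPS 1, the 3 WT LPS or the 2 WT saline libraries (adjusted p of 0.0506 to 0.161) and with the Y-linked term (0.12).

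Cry2 (chromosome 2, 92403646 to 92434043, minus strand) had 186 and 144 RPM in SOCS3iKEO LPS, 30.2 RPM in SOCS3iKEO saline, 35.3, 35.2 and 34.4 RPM in WT LPS and 42.1 and 35.0 RPM in WT saline. As with Per1, the SOCS3iKEO LPS libraries stood far above the other 6, which differed little among themselves. Scaled Cry2 was 241 ± 52.3 RPM in SOCS3iKEO LPS (SD, n = 2), against 24.2 RPM in SOCS3iKEO saline. In WT it was 34.2 ± 1.26 scaled RPM after LPS (n = 3) and 30.7 ± 3.78 after saline (n = 2). Cry2 rose with LPS in SOCS3iKEO by 3.24 (SE 0.28, adjusted p = 0.000146), whereas its value in WT was 0.16 (95% interval -0.31 to 0.62) and changed sign as deposited. After LPS it was higher in SOCS3iKEO than in WT by 2.76 (SE 0.21, adjusted p = 6.4e-05), and the interaction was 3.09 (SE 0.35, adjusted p = 0.00327). In the alternatives run the genotype difference after LPS stayed within 2.20 to 3.01 and the interaction within 2.54 to 3.32, each called.

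Nr1d1 (chromosome 11, 98767932 to 98775333, minus strand), the haem-binding repressor REV-ERB alpha, fell in both genotypes. It stood at 15.2 and 10.2 RPM in SOCS3iKEO LPS, 134 RPM in SOCS3iKEO saline, 10.1, 11.3 and 6.09 RPM in WT LPS and 82.5 and 133 RPM in WT saline. The LPS and saline libraries were far apart in both genotypes, and the genotypes overlapped within LPS as deposited. Nr1d1 fell with LPS, with a log2 fold change of -2.51 in SOCS3iKEO (SE 0.44, adjusted p = 0.00223) and -3.12 in WT (SE 0.33, adjusted p = 0.000677), called in every alternative run. After LPS it was called higher in SOCS3iKEO than in WT by 0.97 (SE 0.33, adjusted p = 0.0323), with scaled levels of 18.5 ± 5.80 RPM (SD, n = 2) and 8.95 ± 2.53 RPM (n = 3). That difference was 0.44 as deposited (adjusted p = 0.268), and it was also lost without the low-count filter (0.0921), with a pseudocount of 10 (0.0722), without SOCS3iKEO LPS 1 (0.208), without WT LPS 3 (0.101) and with the Y-linked term (0.0714).

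Dbp (chromosome 7, 45705088 to 45710203, plus strand), the D-box activator that carries the rhythm to output genes, is known as an E-box target like Nr1d1. It moved apart from Nr1d1 with LPS in SOCS3iKEO, at 2.13 against -2.51. In WT both values were below 0 (Dbp -1.17, not called, and Nr1d1 -3.12). Between genotypes after LPS both were called higher in SOCS3iKEO. Dbp stood at 137 and 198 RPM in SOCS3iKEO LPS, 67.1 RPM in SOCS3iKEO saline, 43.4, 10.7 and 13.5 RPM in WT LPS and 45.6 and 61.7 RPM in WT saline. The SOCS3iKEO LPS libraries were highest and the WT LPS libraries lowest, with WT LPS 1 close to the saline values. After LPS Dbp was higher in SOCS3iKEO than in WT, at 241 ± 53.6 scaled RPM (SD, n = 2) against 22.4 ± 18.5 scaled RPM (n = 3), a log2 fold change of 3.64 (SE 0.51, adjusted p = 0.000555) that was called in every alternative run (3.07 to 4.25). Dbp rose with LPS in SOCS3iKEO (2.13, SE 0.68, adjusted p = 0.0308), but not as deposited (1.28, adjusted p = 0.126), without the filter (0.112), or without SOCS3iKEO LPS 1 (0.0581) or 2 (0.0931). In WT the value was -1.17 (SE 0.51, adjusted p = 0.148), and it moved with the WT LPS library left out, to -1.76 without WT LPS 1 (called lower, adjusted p = 0.00622) and -0.77 without WT LPS 2 (not called). The interaction was 3.29 (SE 0.85, adjusted p = 0.0299), and it was lost without the filter (0.107) or without any 1 of the libraries other than WT LPS 1 that could be left out (0.0525 to 0.0919).

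Differences of log2 levels between members of the same library do not depend on the scaling between libraries. Because each amplicon has its own efficiency, only their change between libraries is read. Nr1d1 minus Arntl was -1.80 and -1.93 in SOCS3iKEO LPS, 1.59 in SOCS3iKEO saline, -2.79, -2.88 and -3.18 in WT LPS, against 0.60 and 1.13 in WT saline. It separated LPS from saline in both genotypes, and the SOCS3iKEO LPS values lay between WT LPS and saline. Cry2 minus Cry1 was 2.89 and 2.75 in SOCS3iKEO LPS, 2.32 in SOCS3iKEO saline, 0.78, 0.70 and 0.59 in WT LPS, against 2.37 and 2.28 in WT saline. Here WT LPS alone stood low, since Cry1 was high there and Cry2 was not. Dbp minus Nr1d1 was 3.17 and 4.28 in SOCS3iKEO LPS, -0.997 in SOCS3iKEO saline, 2.10, -0.08 and 1.15 in WT LPS, against -0.86 and -1.11 in WT saline. Every LPS library lay above every saline library, and SOCS3iKEO LPS lay above WT LPS. Npas2 minus Clock, the balance of the alternative BMAL1 partners, was -1.46 and 0.13 in SOCS3iKEO LPS, -4.33 in SOCS3iKEO saline, -1.78, -2.28 and -3.05 in WT LPS, against -4.44 and -3.47 in WT saline, with the same order of groups.

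**Figure D3:**
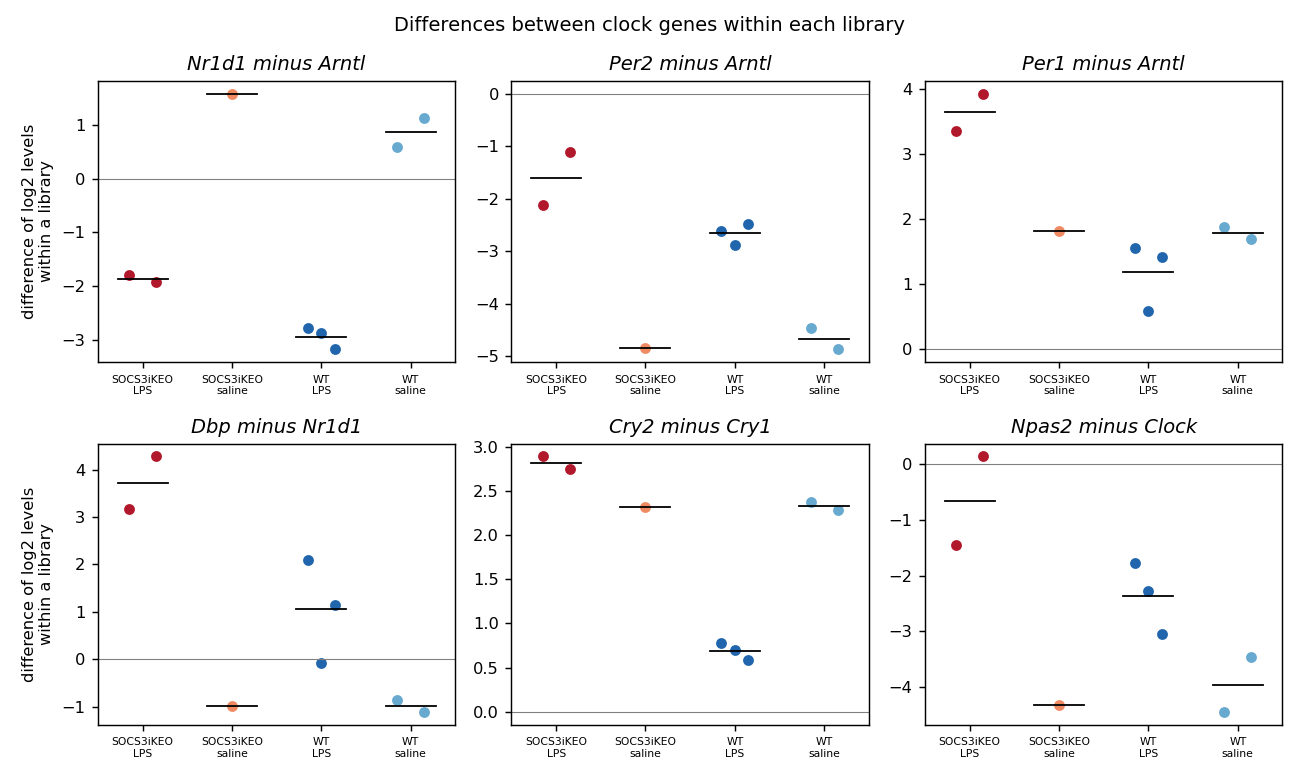
Differences of log2 levels between pairs of clock genes within each library (vertical axis, log2 units, own range per panel), by group, with points for libraries and bars for group means. Nr1d1 minus Arntl is below 0 in all LPS libraries and above 0 in all saline libraries, and Cry2 minus Cry1 is below 1 in WT LPS only.

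Other genes of the clock's loops were followed from a list of 11, of which 9 were in the table and 7 passed the filter (Bhlhe41 and Ciart were not analysed here, and Arntl2 and Rorb were at 0 to 3 reads per library). With LPS in SOCS3iKEO 3 of the 7 were called higher and 2 lower (all genes 20.2% and 23.9%), and with LPS in WT 0 higher and 3 lower (all genes 6.85% and 8.79%). Between genotypes after LPS 4 were higher and 0 lower (all genes 24.0% and 26.7%), and the interaction was called in 3, all with the more positive LPS effect in SOCS3iKEO (8.96% of all genes). As deposited the counts were 3 and 3 with LPS in SOCS3iKEO, 0 and 4 with LPS in WT and 3 and 0 between genotypes after LPS. The list median was 0.64 with LPS in SOCS3iKEO (all genes tested -0.08), -0.55 with LPS in WT (all genes -0.02) and 1.04 for SOCS3iKEO against WT after LPS (all genes -0.04). The deposited values gave medians of -0.06, -0.84 and 0.48 in the same order, so the direction of the first depended on the scaling.

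Nfil3, the D-box repressor that opposes DBP, stood at 152 and 169 RPM in SOCS3iKEO LPS, 20.2 RPM in SOCS3iKEO saline, 30.9, 16.6 and 24.1 RPM in WT LPS and 19.8 and 17.9 RPM in WT saline. Bhlhe40 (DEC1), an E-box repressor, stood at 2531 and 2407 RPM in SOCS3iKEO LPS, 426 RPM in SOCS3iKEO saline, 584, 238 and 355 RPM in WT LPS and 624 and 435 RPM in WT saline. Both showed the pattern of Per1 and Cry2, with the SOCS3iKEO LPS libraries above all others and WT LPS overlapping WT saline. The log2 fold change between genotypes after LPS was 3.30 for Nfil3 (SE 0.28, adjusted p = 9.1e-05) and 3.32 for Bhlhe40 (SE 0.36, adjusted p = 0.000199). Rora, an activator that competes with REV-ERB proteins for their sites, was also higher in SOCS3iKEO after LPS, by 1.995 (adjusted p = 0.000333). All 3 genes were called in the interaction, with values of 2.23 for Rora, 3.20 for Nfil3 and 3.60 for Bhlhe40.

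Nr1d2 (REV-ERB beta) followed Nr1d1, at 53.6 and 59.5 RPM in SOCS3iKEO LPS, 201 RPM in SOCS3iKEO saline, 30.7, 42.6 and 49.9 RPM in WT LPS and 112 and 166 RPM in WT saline. All LPS libraries lay below all saline libraries. It fell with LPS by a log2 fold change of -0.97 in SOCS3iKEO (adjusted p = 0.0447) and -1.44 in WT (adjusted p = 0.00742). The D-box activator Tef also fell with LPS, with -1.15 in SOCS3iKEO (adjusted p = 0.0419) and -1.18 in WT (adjusted p = 0.028), and stood at 6.17 and 3.76 RPM in SOCS3iKEO LPS, 20.9 RPM in SOCS3iKEO saline, 5.11, 8.51 and 7.00 RPM in WT LPS and 21.8 and 19.0 RPM in WT saline. Its relative Hlf fell in WT (-1.68, adjusted p = 0.0116) and was not called in SOCS3iKEO (-0.50, adjusted p = 0.388). Timeless, a replication fork protein related to a fly clock gene, was called in no comparison.

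**Figure D4:**
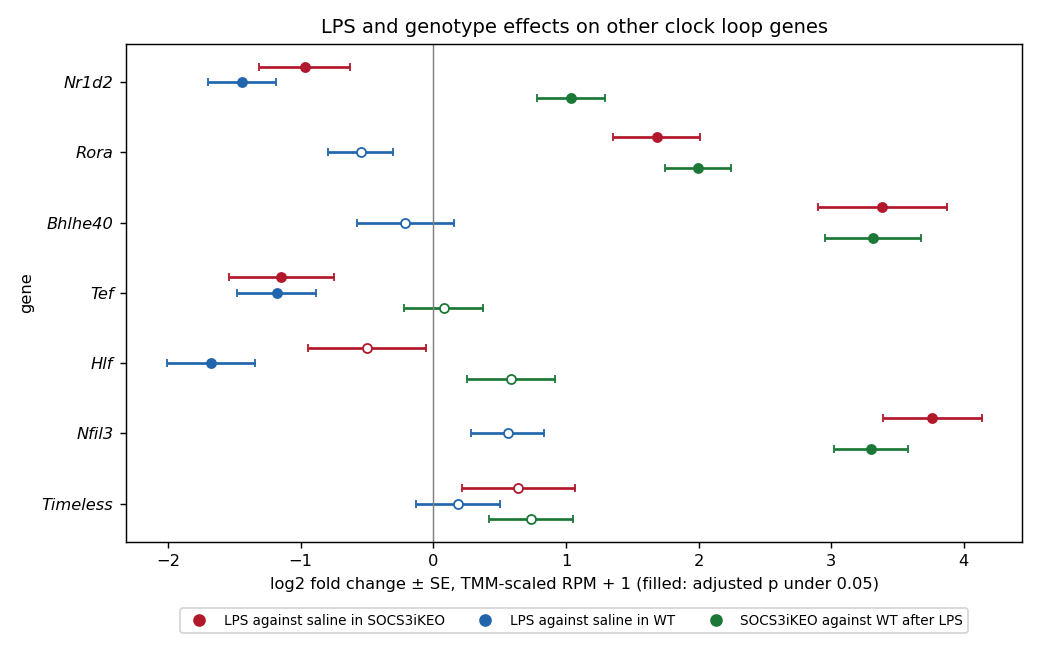
Log2 fold change with its standard error for 7 other loop genes tested, for LPS against saline in SOCS3iKEO (red), LPS against saline in WT (blue) and SOCS3iKEO against WT after LPS (green), filled where the adjusted p was under 0.05. Rora, Bhlhe40 and Nfil3 are filled in red and green and open in blue, and Nr1d2 and Tef lie below 0 in both genotypes with LPS.

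Genes that modify or feed from the loop gave mixed counts. Of 15 kinases and turnover factors tested, which mark clock proteins for degradation or spare them, LPS called 6 higher and 1 lower in SOCS3iKEO and 2 higher and 0 lower in WT, and after LPS 7 were higher and 4 lower in SOCS3iKEO than in WT. Over all genes the shares higher and lower were 20.2% and 23.9% with LPS in SOCS3iKEO, 6.85% and 8.79% with LPS in WT and 24.0% and 26.7% between genotypes after LPS, so that 4 of 15 lower was the share of all genes. As deposited the counts were 2 and 2, 1 and 1, and 2 and 4. The list median was 0.86 with LPS in SOCS3iKEO, 0.14 with LPS in WT and 0.52 between genotypes after LPS (all genes -0.08, -0.02 and -0.04). As deposited it was 0.02, -0.15 and -0.05 in the same order (all genes -0.73, -0.26 and -0.45). With LPS in SOCS3iKEO, Csnk1d, the casein kinase that phosphorylates PER proteins, rose by 2.26 (adjusted p = 0.000259), the REV-ERB alpha ubiquitin ligase Siah2 rose by 2.17 (adjusted p = 0.00163), and Btrc, the ligase for phosphorylated PER, fell (-1.85, adjusted p = 0.00919). Of 12 co-regulators, 0 were higher and 4 lower in SOCS3iKEO than in WT after LPS, where 26.7% of all genes were lower. The list median was -0.33 (all genes -0.04). As deposited 9 were lower, where 5346 of all 12820 genes were lower, and the list median was -0.89 (all genes -0.45). Among the 4 were Parp1 (-2.37, adjusted p = 0.00042), which modifies CLOCK, and Hdac3 (-1.06, adjusted p = 0.0049), the deacetylase that REV-ERB proteins recruit. Of 10 vascular and metabolic genes known as clock outputs, 7 were higher and 0 lower after LPS in SOCS3iKEO (list median 1.99; 20.2% of all genes higher), and 4 were higher and 0 lower in WT (list median 0.76; 6.85% of all genes higher), where as deposited 3 were higher and 1 lower. Ccl2, a monocyte chemokine that also answers LPS directly, rose by 7.13 in SOCS3iKEO (adjusted p = 2.14e-05) and 6.27 in WT (adjusted p = 1.27e-05), and Nampt, the rhythmic enzyme of NAD salvage, rose by 3.14 in SOCS3iKEO (adjusted p = 0.000392).

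Glucocorticoid-responsive genes were followed because the hormone resets peripheral clocks through Per1. With LPS 7 of the 8 were called higher and 0 lower in SOCS3iKEO, Per1 among them, and 3 higher and 1 lower in WT, where 20.2% of all genes were higher in SOCS3iKEO and 6.85% higher and 8.79% lower in WT. The list median was 2.37 in SOCS3iKEO (all genes -0.08) and 0.33 in WT (all genes -0.02), and as deposited 1.52 and 0.03. Fkbp5, an inducible chaperone of the glucocorticoid receptor, rose by 2.77 in SOCS3iKEO (adjusted p = 0.00046) and by 5.12 in WT (adjusted p = 1.75e-05), and after LPS it was lower in SOCS3iKEO than in WT (-1.17, adjusted p = 0.00445). Zbtb16 rose by 5.64 in SOCS3iKEO (adjusted p = 0.000146) and by 6.18 in WT (adjusted p = 3.04e-05). Between genotypes after LPS, 5 of the 8 were called higher and 1 lower in SOCS3iKEO (all genes 24.0% and 26.7%). As deposited 3 were higher and 3 lower. Dusp1, a MAP kinase phosphatase, was higher in SOCS3iKEO after LPS by 2.82 (adjusted p = 0.000466), the same direction as Per1. Tsc22d3 (-0.38) and Zbtb16 (-0.47) lay below 0 there like Fkbp5, but were not called. The receptor gene Nr3c1 fell with LPS in WT (-1.11, adjusted p = 0.0217) and was higher in SOCS3iKEO than in WT after LPS (1.34, adjusted p = 0.00273).

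Genes outside the clock lists with the most similar profile were found by the root mean square difference of centred log2 levels over the 8 libraries, among 8094 genes. For Per1 these were Gcnt2 (0.129), Zfp1 (0.140) and Fgfr1 (0.167), for Dbp Metrnl (0.423), Egr1 (0.487) and Abca1 (0.492), for Nr1d1 F8 (0.423), Tspan13 (0.458) and Enpep (0.481), and for Arntl Nod2 (0.125), Armc8 (0.153) and Ythdc2 (0.155), all in log2 units. Egr1, an immediate early factor, had 881 and 1139 RPM in SOCS3iKEO LPS, 206 RPM in SOCS3iKEO saline, 350.1, 67.5 and 80.4 RPM in WT LPS and 495 and 315 RPM in WT saline. As for Dbp, WT LPS 1 was the highest of the WT LPS libraries for Egr1, and the other WT LPS libraries were the lowest of all. WT LPS 1 held 3 Y-linked reads, against 3987 and 3320 in WT LPS 2 and 3, and WT saline was split too (2 and 3805). Whether this bears on the likeness of the Egr1 and Dbp profiles was not tested. For Dbp with LPS in WT, limma with a term for Y-linked reads gave -1.03 (adjusted p = 0.146), against -1.17 without the term.

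Summed tubule and leukocyte markers were higher in SOCS3iKEO than in WT after LPS, and summed mural and fibroblast markers overlapped. The 10 proximal tubule markers summed to 894 to 1569 RPM in SOCS3iKEO LPS, 1195 RPM in SOCS3iKEO saline, 235 to 387 RPM in WT LPS and 711 to 1086 RPM in WT saline. Between genotypes after LPS, 9 of the 10 were called higher in SOCS3iKEO, where 24.0% of all genes were called higher. The 8 distal nephron markers summed to 383 and 384 RPM in SOCS3iKEO LPS, 277 RPM in SOCS3iKEO saline, 92.7 to 121 RPM in WT LPS and 256 to 350 RPM in WT saline. Of these, 7 of the 8 were called higher in SOCS3iKEO than in WT after LPS, on the same share of all genes. With LPS in WT, each of the proximal and distal lists had 0 markers called higher and 5 lower (all genes 6.85% and 8.79%). The interaction was called in 7 of the 10 proximal and 3 of the 8 distal markers. All had the more positive LPS effect in SOCS3iKEO, as for Per1, Cry2 and Dbp (8.96% of all genes). As deposited the interaction was called in 6 and 3. Proximal tubule sums in SOCS3iKEO LPS overlapped those after saline, and distal nephron sums in SOCS3iKEO LPS lay above every saline library. Among single distal nephron markers, Umod and Slc12a3 did so in SOCS3iKEO LPS. Kcnj1 and Aqp3 lay below every saline library there, and the others overlapped. With LPS in SOCS3iKEO, 2 of the 8 distal nephron markers were called higher and 0 lower (all genes 20.2% and 23.9%). Leukocyte markers summed to 18.8 to 37.7 RPM in SOCS3iKEO LPS, 9.16 RPM in SOCS3iKEO saline, 7.25 to 15.1 RPM in WT LPS and 5.47 to 17.1 RPM in WT saline. Of 7 tested, 4 were called higher with LPS in SOCS3iKEO, 2 with LPS in WT and 3 in SOCS3iKEO than in WT after LPS. Over all genes the shares called higher were 20.2%, 6.85% and 24.0%. S100a9, a neutrophil protein, stood at 18.0 and 6.31 RPM in SOCS3iKEO LPS, 0 in SOCS3iKEO saline, 3.27, 2.37 and 4.64 RPM in WT LPS and 0.421 and 0.336 RPM in WT saline. Its partner S100a8 stood at 7.12 and 5.32 RPM in SOCS3iKEO LPS, 0 in SOCS3iKEO saline, 3.77, 0.888 and 2.55 RPM in WT LPS and 0.21 and 0.134 RPM in WT saline. For both genes, and for Itgam, every LPS library lay above every saline library. Other leukocyte markers did not all follow. Lyz2 was lower with LPS, at 2.37 and 1.99 against 3.67 RPM in SOCS3iKEO. In WT it was 1.84, 1.48 and 1.82 RPM after LPS against 2.17 and 11.6 RPM after saline. Csf1r was lower with LPS in WT and overlapped in SOCS3iKEO. Ptprc, the pan-leukocyte marker, was at 0.593 RPM or less and the T cell marker Cd3e at 0.141 RPM or less in every library. Mural and fibroblast markers summed to 26.3 to 31.4 RPM in SOCS3iKEO LPS, 72.6 RPM in SOCS3iKEO saline, 28.4 to 33.7 RPM in WT LPS and 27.7 to 37.2 RPM in WT saline. The part of these cells in the clock gene results was not tested.

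The genotype difference after LPS depended on the scaling for several members. With TMM the median log2 fold change of all genes was -0.04, and as deposited it was -0.45. In the deposited values 3 members were called higher (Per1, Cry2 and Dbp) and 1 lower (Clock), while over all genes 1720 were called higher and 5346 lower, against 3075 higher and 3426 lower after TMM. Libraries of the genotypes did not overlap for 6 members higher and 2 lower in scaled values, where 31.9% and 35.3% of all genes did so, and for 4 higher and 3 lower as deposited, where 18.8% and 51.2% did. With a term for Y-linked reads, which numbered at most 3 in every SOCS3iKEO library and 3987 and 3320 in 2 of the WT LPS libraries, Per1, Cry2 and Dbp were the 3 members called. The same split of all genes was seen with LPS, where deposited values gave 1219 higher and 5686 lower in SOCS3iKEO (2589 and 3060 after TMM) and 586 higher and 2366 lower in WT (878 and 1127 after TMM), and for the interaction, with 621 and 2561 (1149 and 1217 after TMM).

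**Figure D5:**
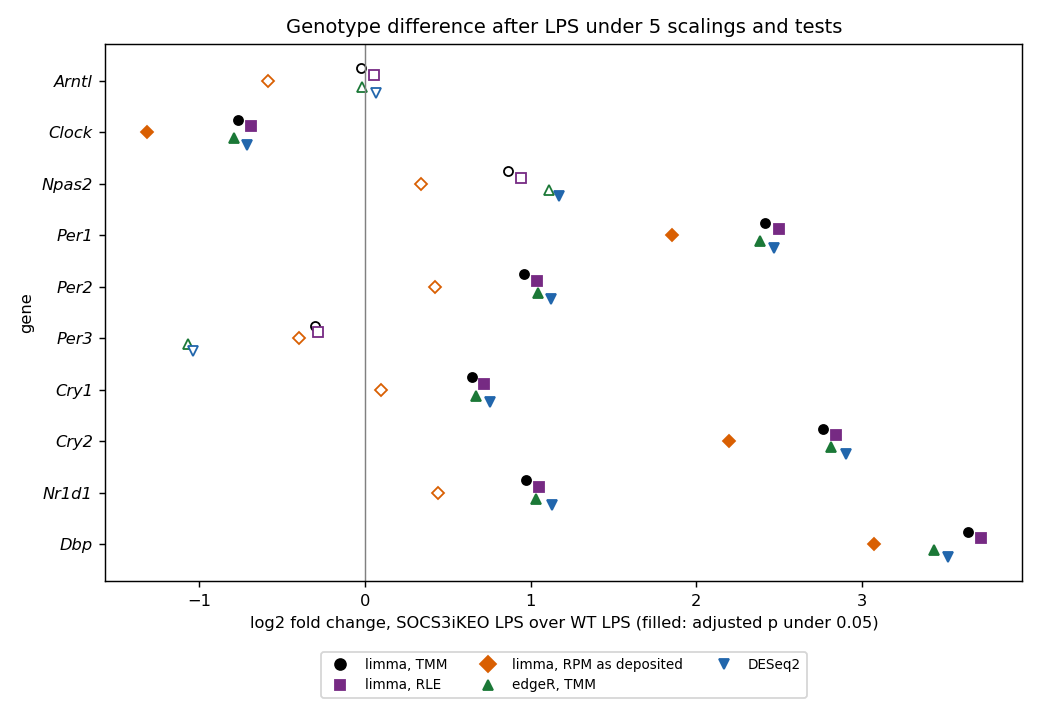
Log2 fold change of SOCS3iKEO LPS over WT LPS for each clock gene under limma with TMM, limma with RLE, limma on RPM as deposited, edgeR and DESeq2, filled where the adjusted p was under 0.05. Per1, Cry2 and Dbp are filled to the right of 0 and Clock to the left under all 5, while Per2, Cry1 and Nr1d1 are open as deposited.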

How the data were processed

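Ribosome-bound RNA was pulled down from kidneys, and libraries were made on an Ion Chef with an Ion AmpliSeq panel of mouse transcripts, per the labels' protocols. Build mm10 and a tool, Transcriptome Analysis Console, appear in the submitters' processing notes without a stated use. The sources used here name no aligner or counter. Values are deposited as reads per 1000000 panel reads (RPM), scaled by the authors to library totals alone, because columns sum to 1000000. Within 0.1 read, 100% of values were whole multiples of 1 read, so reads were recovered (7093794 to 14877519 per library). Dates stood in place of 27 gene names and were turned back. Reads are PCR copies without molecular identifiers, so intervals and floors cover counting error only.

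The members and gene lists were chosen with earlier results of these data known. Groups came from the genotype and treatment labels. Limma 3.58.1 with a trended prior was run in R 4.3.3 on log2(TMM-scaled RPM + 1) over the 12820 genes kept by filterByExpr (minimum count 10, total 15), with 1 mean per group over all 8 libraries. It was also run on simulated data with changes in WT LPS only, scored for LPS against saline in WT. That simulation does not cover the single SOCS3iKEO saline library, the interaction or the spread of scaling factors seen here. SOCS3iKEO saline has 1 library and takes its spread from the others. Separate mice are biological samples, but 1 to 3 per group limit the precision. Alternatives were RLE factors, RPM as deposited, no filter, pseudocounts 0.1 and 10, edgeR 4.0.16 and DESeq2 1.42.0 on recovered reads, log2 CPM with prior count 2, leaving out each library, only the libraries compared and, chosen after seeing the data, a term for Y-linked reads. Named were all members, the loop genes (1 is not reported here), up to 4 called genes per other list and comparison by largest change (with a selection of these in the text), and the 3 nearest profiles for Per1, Dbp, Nr1d1 and Arntl. Amplicon position and strand are not given, so overlapping genes may share reads. Gene bounds are from GENCODE M21.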

Additional observations from a re-analysis of the deposited data

Results flagged for a closer look

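The LPS effects of 3 clock genes differed between the genotypes by limma's interaction test. The difference, SOCS3iKEO minus WT on the log2 scale, was 3.09 for Cry2 (adjusted p = 0.00327), 2.75 for Per1 (adjusted p = 0.00606) and 3.29 for Dbp (adjusted p = 0.0299). Each rests on 1 SOCS3iKEO saline library, and the runs of animal numbers coincide with the interaction, so that the run and the interaction cannot be told apart.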

How the results depend on the processing

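No paired analysis was possible because the labels carry no replicate numbers that pair mice across groups. Counts of clock genes called stayed within 1.5 times in all alternatives run, except for SOCS3iKEO against WT after LPS, where 7 members were called with TMM, 4 with RPM as deposited and 3 with the term for Y-linked reads. Over single members, 802 of the values recomputed kept their direction and their side of the threshold, 13 gained a call, 32 lost it and 12 changed sign. None of those 12 was called. They were Cry2 with LPS in WT (-0.132 as deposited), Per1 with LPS in WT (0.014 with the Y-linked term, and -0.258 to 0.142 when 1 library was left out, with the highest without WT LPS 2), Arntl between genotypes after LPS (0.055 with RLE, 0.066 with DESeq2, 0.013 on the LPS libraries alone, and -0.283 to 0.256 when 1 library was left out, above 0 without SOCS3iKEO LPS 2, WT LPS 1 or WT LPS 2), Per3 (-0.040 to 0.240 when 1 library was left out, with the lowest without WT saline 1) and Dbp (-0.082 with the Y-linked term) between genotypes after saline, and Arntl in the interaction (-0.221 as deposited). The cause of these shifts was not tested.

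Counts over all genes moved more. LPS in SOCS3iKEO gave 5649 calls, and 2665 on its 3 libraries alone. LPS in WT gave 2005 calls, 1078 without the filter, and 1093, 348 and 564 without WT LPS 3, WT saline 1 and WT saline 2. The interaction gave 2366, 844 without the filter and 238 to 3679 when 1 library was left out. After saline, 0 genes were called between genotypes with TMM and limma, 2 without the filter, 1 with a pseudocount of 0.1, 1 with log2 CPM and 5 with DESeq2. Leaving out SOCS3iKEO saline leaves no LPS effect in SOCS3iKEO and no interaction. Depth limits Per3 most, at 1 and 3 reads in SOCS3iKEO LPS.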
